A study of Mus musculus with 5 samples.

Results

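The 5 Mb of mouse chromosome 13 from 80 to 85 Mb (mm10) hold Mef2c and long stretches without protein-coding genes, among them the stretch from 82 to 83 Mb. They were taken by coordinates from 4C-seq count tables, as 12595 of the 292200 restriction fragments listed for the chromosome. The region was chosen by the counts of covered fragments in these 5 libraries, at 1 or more, 2 or more and 10 or more reads. Counts in the region are therefore given as a description, with 95% Wilson intervals and without tests. 4C-seq records which DNA fragments are ligated to a chosen bait fragment in crosslinked nuclei. The bait lay at position 101766365 at the Pik3r1 gene, which encodes a regulatory subunit of phosphoinositide 3-kinase, so that the region was 16.8 to 21.8 Mb away on the lower-coordinate side.

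The 5 libraries came from 3 groups of mice labelled C57/Bl6. There was 1 library of wild-type (WT) CD4+/CD8+ double-positive (DP) thymocytes, sorted from thymus at 4 weeks of age. Skeletal muscle nuclei at 10 to 12 weeks gave 2 libraries of WT and 2 of GRko mice, the latter labelled KO and taken, from knowledge of the study, to mean loss of the glucocorticoid receptor. The sources used here do not say how the receptor was deleted or in which cells. The labels do not say whether replicates were separate animals, so the spread between them may be technical. Muscle nuclei come from every cell type of the tissue, so a different mix of nuclei and a different contact frequency per nucleus cannot be told apart. Tissue and age also differed together. Contact counts hold no expression values, and the labelled cell types and genotypes were not checked.

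Mef2c encodes a MADS-box transcription factor that drives muscle, heart and neural gene programmes and also acts in lymphoid cells. It sits, like many developmental regulators, between gene deserts that hold distant regulatory elements. Contacts of a bait over many megabases on its own chromosome generally reflect the folding of the chromosome territory, in which active, gene-rich and inactive, gene-poor chromatin tend to separate. At such distances single ligation products are rare, and the number of different fragments recovered is a better guide to contacts than the number of reads, which counts PCR copies. A fragment with at least 1 read is called covered here, and far means more than 1.5 Mb from the bait.

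Of 48 annotated genes in the region, 8 are protein-coding. From low to high coordinate they are Arrdc3, an arrestin-domain adaptor of membrane receptors; Adgrv1, a very large adhesion receptor of sensory hair cells; Lysmd3, a LysM-domain membrane protein; Polr3g, an RNA polymerase III subunit; Mblac2, a metallo-beta-lactamase domain protein; Cetn3, a centrin of the centrosome; Mef2c; and Tmem161b, a transmembrane protein. Promoter sequences from RefSeq (GRCm38.p6, numbered as mm10 is) were given for 7 of the 8. The following 4 are shown because the thymocyte library had covered fragments near the Lysmd3 and Mblac2 start sites, in the gene-rich part. Within 2 kb of the Mef2c start sites shown it covered 0 and 1 of 6 fragments. A further Mef2c start site, at 83573607 and not shown, had 2 of 6, as Mblac2 had. Each sequence runs from 250 bases before to 50 bases after a start site, 5′ to 3′, with the DpnII site GATC, at which the chromatin was cut, in capitals.
Lysmd3, chr13:81657556-81657855, plus strand: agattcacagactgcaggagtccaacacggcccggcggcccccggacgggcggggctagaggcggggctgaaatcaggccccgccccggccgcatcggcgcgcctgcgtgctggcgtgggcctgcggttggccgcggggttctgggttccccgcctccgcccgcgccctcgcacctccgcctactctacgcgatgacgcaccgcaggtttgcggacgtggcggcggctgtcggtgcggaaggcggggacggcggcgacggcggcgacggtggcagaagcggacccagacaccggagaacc
Mblac2, chr13:81711167-81711466, plus strand: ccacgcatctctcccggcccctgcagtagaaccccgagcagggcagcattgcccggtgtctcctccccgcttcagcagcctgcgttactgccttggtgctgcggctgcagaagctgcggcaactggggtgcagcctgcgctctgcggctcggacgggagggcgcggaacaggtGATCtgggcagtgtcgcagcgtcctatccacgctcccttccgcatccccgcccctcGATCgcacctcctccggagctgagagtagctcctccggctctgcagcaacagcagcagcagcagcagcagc
Mef2c, first start site, chr13:83503784-83504083, plus strand: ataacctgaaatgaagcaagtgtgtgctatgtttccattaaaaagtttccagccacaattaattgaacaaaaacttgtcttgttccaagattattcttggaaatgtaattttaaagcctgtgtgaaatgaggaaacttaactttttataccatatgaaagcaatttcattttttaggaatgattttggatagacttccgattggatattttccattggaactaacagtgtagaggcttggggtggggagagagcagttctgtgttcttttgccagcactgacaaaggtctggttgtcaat
Mef2c, start site within the gene span, chr13:83523406-83523705, plus strand: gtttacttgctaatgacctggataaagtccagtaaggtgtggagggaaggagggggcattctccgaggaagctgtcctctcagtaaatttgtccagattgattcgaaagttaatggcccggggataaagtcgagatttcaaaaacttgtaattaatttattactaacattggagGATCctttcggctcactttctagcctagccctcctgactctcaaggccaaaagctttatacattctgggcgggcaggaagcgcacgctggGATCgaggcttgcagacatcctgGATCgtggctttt
GATC reads the same on both strands and occurred in 48.0% of 32851 mouse promoter sequences of this length. The Lysmd3 and first Mef2c sequences hold none, the Mblac2 sequence holds 2 and the internal Mef2c sequence 3. Lysmd3 and Mblac2 are rich in G and C (74.7% and 67.7%) and the first Mef2c promoter is not (35.7%). The restriction fragment that lies whole within the Mblac2 promoter, 56 bp long, had 0 reads in every library, as had those of 90 and 23 bp within the internal Mef2c promoter. Since libraries covered only 0.854% to 3.29% of far fragments, 0 reads in single short fragments tells nothing about these promoters.

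Libraries differed in depth. The thymocyte library had 9363 covered far fragments, WT muscle replicates 1 and 2 had 6244 and 3022, against 2791 and 2434 in GRko muscle replicates 1 and 2, which is 0.854% to 3.29% of the 284869 far fragments. Replicate 2 of each muscle genotype, read at 23 nt where the other libraries had 29 nt, stood apart. Fragments with a single read made up 45.7% of far covered fragments in WT replicate 2 and 48.5% in GRko replicate 2, and 9.22% to 14.0% in the remaining 3. Counts at 10 or more reads are therefore given beside the main ones; the part of read length in them was not tested.

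DP thymocytes placed a smaller share of their far contacts in the Mef2c region than any muscle library. The region held 192 covered fragments in DP thymocytes, 253 and 122 in WT muscle, against 118 and 106 in GRko muscle. As shares of far covered fragments these were 2.05% for thymocytes (1.78 to 2.36), 4.05% and 4.04% in WT muscle, against 4.23% and 4.35% in GRko muscle. The thymocyte interval ended below the lowest interval of a muscle library, which began at 3.39. The region makes up 4.42% of far restriction fragments, so muscle was close to an even spread, with observed over expected ratios of 0.913 to 0.985, and thymocytes stood at 0.464. That even spread is not matched for distance. The other 30 windows of 500 kb at 10 to 30 Mb below the bait had, pooled, 0.821 in thymocytes and 0.612 to 0.768 in muscle. By the median window thymocytes had 0.477 in the region and 0.490 in those others. Muscle medians were 0.821 to 0.964 in the region and 0.468 to 0.725 in those others. The difference between thymocytes and the WT mean of 4.04% ± 0.0105 (SD, n = 2) was -1.99 percentage points. That SD is far below counting error and no measure of precision. It was 0.394 at 2 or more reads and 0.607 at 10 or more. Intervals cover counting error only, and thymocytes were measured in 1 library, without replicates.

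The thymocyte share hardly moved with the reads required. At 10 or more reads the region held 1.97% of far covered fragments in thymocytes (1.66 to 2.34), from 126 fragments. The muscle libraries then held 4.02% and 3.16% (WT) and 4.51% and 4.95% (GRko), from 174, 34, 80 and 42 fragments. The interval of WT replicate 2 was then 2.27 to 4.38 and overlapped that of thymocytes, while the other 3 muscle intervals began at 3.47 or above. The muscle genotypes moved apart as the threshold rose. GRko minus WT was 0.247 percentage points at 1 or more reads, 0.833 at 2 or more and 1.14 at 10 or more. At each threshold both GRko libraries lay above both WT libraries, while the Wilson intervals of the genotypes overlapped. From 1 to 10 or more reads WT replicate 2 went from 4.04% to 3.16% and WT replicate 1 from 4.05% to 4.02%, while both GRko shares went up. With 2 libraries against 2, no exact permutation test can give a p under 0.333.

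**Figure D1:**
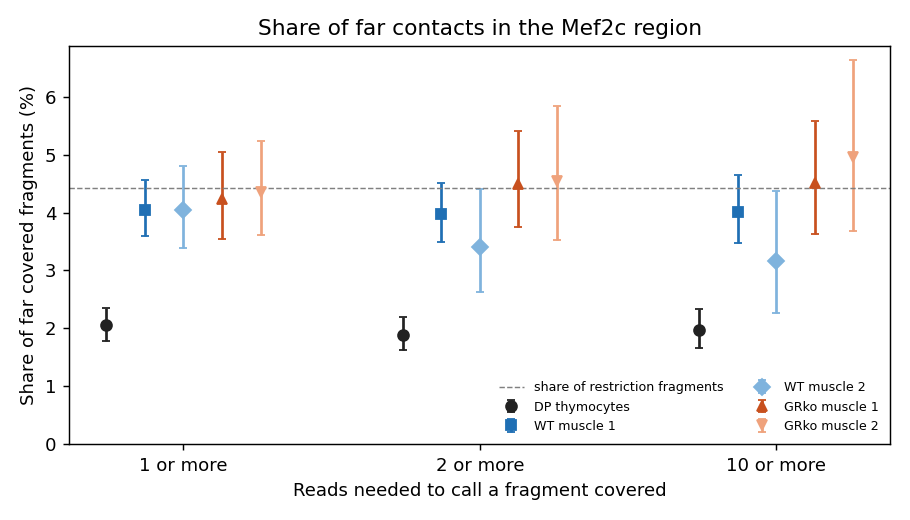
Share of far covered fragments (%) that lay in the Mef2c region, for 1, 2 or 10 reads needed per fragment; points are single libraries, bars 95% Wilson intervals, and the dashed line the region's share of restriction fragments. Thymocytes lie at 1.89% to 2.05% and the muscle libraries between 3.16% and 4.95%.

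By windows of 500 kb, muscle ratios were highest in the gene-free windows just below Mef2c and the thymocyte ratio in the window from the end of Adgrv1 to Cetn3. Ratios are of observed to expected covered fragments, where 1 is the far average of a library, and a window is named by its range or its lower border. In the window from 82 to 82.5 Mb, which holds no protein-coding gene, thymocytes had 4 covered fragments, WT muscle 22 and 15, and GRko muscle 11 and 9. The ratios were 0.0937 in thymocytes, 0.931 ± 0.223 in WT, against 0.838 ± 0.0378 in GRko muscle (SD, n = 2 each). All 4 muscle libraries lay between 0.773 and 1.09, far above the thymocyte value.

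The next window, from 82.5 to 83 Mb, also has no coding gene. It had 11 covered fragments in thymocytes, 27 and 19 in WT muscle, against 18 and 17 in GRko muscle. Its ratio was 0.290 in thymocytes, 1.31 ± 0.343 in WT, against 1.66 ± 0.0935 in GRko muscle (SD, n = 2 each). WT muscle was 4.52 times thymocytes here and 9.93 times in the window before it. Every muscle ratio at 82.5 to 83 Mb lay above the far average, the lowest being 1.07 for WT replicate 1. No intervals were computed for these ratios, so that lowest value is not shown to exceed the far average. In the window before it, only WT replicate 2 was above the far average, at 1.09.

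From 83 to 83.5 Mb, the last window before Mef2c, 24 fragments were covered in thymocytes, 52 and 15 in WT muscle, against 26 and 11 in GRko muscle. The replicates of each genotype differed: ratios were 2.02 and 1.20 in WT, against 2.26 and 1.10 in GRko muscle, with the higher value in replicate 1 both times, against 0.622 in thymocytes. It was the highest window of the region in both replicates 1, whereas both replicates 2 peaked in the window before it. The window from 83.5 to 84 Mb, which holds Mef2c, had ratios of 0.698 in thymocytes, 1.21 and 1.33 in WT, against 1.35 and 0.929 in GRko muscle.

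The exception to the low thymocyte values was the window from 81.5 to 82 Mb, which holds the end of Adgrv1 with Lysmd3, Polr3g, Mblac2 and Cetn3. Thymocytes had 43 covered fragments there, WT muscle 15 and 7, and GRko muscle 13 and 7. The ratios were 1.08 in thymocytes, 0.563 and 0.543 in WT, against 1.09 and 0.674 in GRko muscle. Thymocytes were above 3 of the muscle libraries and level with GRko replicate 1, and WT was 0.514 times thymocytes. In the adjoining windows at 81 Mb and 80.5 Mb, with Adgrv1 and Arrdc3, thymocytes stood at 0.694 and 0.351 and the muscle libraries at 0.749 to 1.24 and 0.470 to 0.899. The window at 84 Mb, with Tmem161b, had 0.603 in thymocytes and 0.778 to 1.07 in muscle. The outermost windows were low in nearly all libraries: at 80 Mb the ratios were 0.160 in thymocytes and 0.383 to 0.790 in muscle, and at 84.5 Mb they were 0.169 and 0.353 to 0.729.

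Just outside the upper border of the region, the window from 85 to 85.5 Mb, with Ccnh and Rasa1, had 64 covered fragments and a ratio of 1.44 in thymocytes, and 0.681 to 0.845 in the muscle libraries. Just outside the lower border, the window at 79.5 Mb had 3 covered fragments in thymocytes (ratio 0.0683) and 10, 5, 1 and 13 in the muscle libraries, in the order WT replicates 1 and 2 and GRko replicates 1 and 2. The muscle ratios in that window ran from 0.0763 to 1.14.

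**Figure D2:**
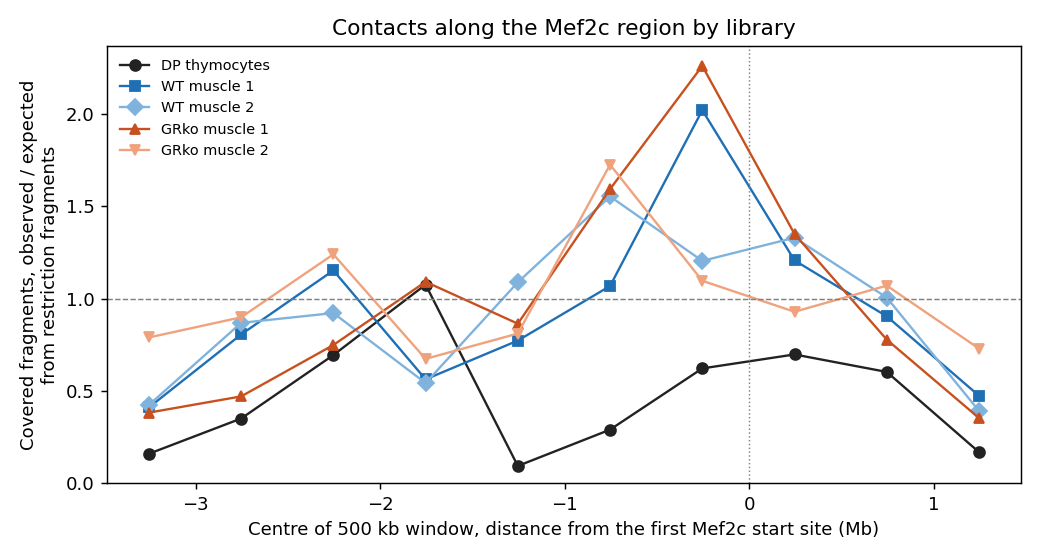
Observed over expected covered fragments in the 10 windows of 500 kb, against distance of the window centre from the first Mef2c start site (Mb); each line is 1 library and the dashed line marks the far average. Thymocytes dip to 0.0937 between Cetn3 and Mef2c and the muscle libraries peak at 1.55 to 2.26 in the last 1 Mb before Mef2c.

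In 9 of the 10 windows the thymocyte share was below all 4 muscle libraries, and in the tenth, at 81.5 Mb, it lay within their range. Over all 228 far windows with at least 10 covered fragments in total, 38.2% had thymocytes below all 4 muscle libraries and 24.6% above. edgeR's quasi-likelihood test over these windows, with Benjamini-Hochberg adjustment at 0.05, called 3 of the 10 windows lower in thymocytes than in WT muscle, those at 82 Mb, 82.5 Mb and 83 Mb, and 0 higher. It called 8.33% of all windows, and 6.14% as lower. Since these counts led to the choice of the region, nothing is read from that number. DESeq2 called 0 of 228 windows, with 16 at an unadjusted p under 0.05, 2 of them in the region. The median log2 ratio of thymocytes over WT muscle was -1.29 over the 10 windows and -0.20 over all windows. TMM scaling moved these medians to -1.10 and -0.0053 and left 2 windows of the region called; over all windows it turned 5 higher and 14 lower calls into 0 higher and 8 lower.

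No window was called between the genotypes. edgeR called 0 of the 10 windows between GRko and WT muscle and 0% of 227 far windows, with 7 windows at an unadjusted p under 0.05, 0 of them in the region; DESeq2 called 0 too, with 0 at an unadjusted p under 0.05. The median log2 ratio of GRko over WT was -0.014 over the region and 0.028 over all windows. Both GRko libraries lay above both WT libraries in 2 windows, at 81.5 Mb and 82.5 Mb, and below them in 0. Over all windows 15% had both GRko libraries above and 12.3% both below. With counts as low as 5 fragments per window and library, small differences were not detectable at this depth. Large ones could be missed too: in simulated counts the edgeR fit between genotypes recovered 62.2% of windows changed 4-fold.

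Divided at the genes, the region fell into stretches of unlike coverage. The 1707 kb between Cetn3 and Mef2c, which hold no coding gene, had 46 of 4168 fragments covered in thymocytes, or 1.10% (95% Wilson interval 0.828 to 1.47). In muscle 108 and 53 (WT) and 60 and 40 (GRko) were covered. The ratios were 0.336 in thymocytes and 1.12 to 1.47 in muscle. Thymocytes were thus below all 4 muscle libraries, as they were in 38.2% of far windows of 500 kb. From Lysmd3 to Cetn3, a stretch of 139 kb with 316 fragments, the order was the other way round for most libraries. Thymocytes had 25 covered fragments, or 7.91% (5.42 to 11.4), WT muscle 5 and 1, and GRko muscle 5 and 1. The ratio of 2.41 in thymocytes was above the 4 muscle values, of which 1.61 in GRko replicate 1 was the highest. Thymocytes were above all 4 in 24.6% of far windows of 500 kb. Below Arrdc3 and above Tmem161b thymocytes had ratios of 0.180 and 0.168, and muscle 0.301 to 0.839 and 0.411 to 0.941.

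The 1 Mb from 82 to 83 Mb held 15 of the region's 192 covered fragments in thymocytes, which is 7.81% (95% Wilson interval 4.79 to 12.5). It held 19.4% and 27.9% in WT muscle, from 49 and 34 fragments, against 24.6% and 24.5% in GRko muscle, from 29 and 26. Its share of the region's restriction fragments is 19.5%. Muscle groups averaged 23.6% ± 6.01 in WT and 24.6% ± 0.0339 in GRko (SD, n = 2 each), so the genotypes differed by less than the spread between WT replicates. This share compares places within the region. The covered fragments from 82 to 83 Mb are also counted in the region's total. The low thymocyte value here and the low total of the region are therefore not separate results.

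The gene for which the region is named had a ratio above 1 in every library. Mef2c spans 163 kb, from 83504017 to 83667079, with 324 fragments. Of these, 13 were covered in thymocytes, 17 and 7 in WT muscle, against 11 and 5 in GRko muscle. The ratios were 1.22 in thymocytes, 2.39 and 2.04 in WT, against 3.47 and 1.81 in GRko muscle. Thymocytes were lowest by this ratio, which is scaled to the far coverage of each library. Unscaled, they covered 4.01% of the fragments and the muscle libraries 1.54% to 5.25%. The thymocyte interval of 2.36 to 6.74 includes the 3.29% of all far fragments. No such intervals were computed for muscle. The ratios of both replicates 2 rest on only 7 and 5 covered fragments, so they are not shown to exceed 1. The genotypes overlapped. At 10 or more reads 9 fragments were covered in thymocytes, 12 and 3 in WT, against 8 and 5 in GRko muscle. The highest counts within Mef2c were 2874 reads at 83567989 in WT replicate 2 and 4309 reads at 83666786 in GRko replicate 2. At each of these fragments the other 4 libraries had 0 reads.

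Around the Mef2c start sites only thymocytes had covered fragments. Within 2 kb of the first start site, at 83504034, 0 of 6 fragments were covered in any library. At 83523656 thymocytes had 1 covered fragment with 4 reads, and at 83573607 they had 2 with 105 reads. No muscle library covered a fragment within 2 kb of any of the 3. With 6 fragments at each site, and 0.842% to 2.01% of the region covered in muscle, muscle contacts there were not detectable at this depth.

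The 4 genes from Lysmd3 to Cetn3 were covered above the far average of 3.29% in thymocytes. Over their spans, 17 of 262 fragments were covered in thymocytes, or 6.49% (95% Wilson interval 4.09 to 10.1). WT muscle covered 5 and 0 and GRko muscle 4 and 0. The 0 in both replicates 2 allows a share of up to 1.15%, which is above the share of far fragments covered in those libraries, 1.06% and 0.854%, so it does not set them below their average. Ratios in the libraries with contacts were 1.97 in thymocytes, 0.871 in WT replicate 1 and 1.56 in GRko replicate 1. Mblac2 took 9 of the 17 thymocyte fragments, Lysmd3 and Polr3g 3 each, and Cetn3 2. Mblac2 had 3044 thymocyte reads, 23 and 0 WT reads, and 213 and 0 GRko reads.

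Adgrv1, the longest gene, did not set the tissues apart. Of its 1280 fragments 30 were covered in thymocytes, 23 and 9 in WT muscle, against 9 and 12 in GRko muscle. The thymocyte ratio of 0.713 lay within the muscle range of 0.663 to 1.10. Tmem161b, with 171 fragments, had 12 covered in thymocytes, 11 and 3 in WT, against 4 and 1 in GRko muscle. Its ratios were 2.14 in thymocytes and 0.684 to 2.93 in muscle, again overlapping. Arrdc3 has 21 fragments, of which thymocytes covered 2, WT replicate 1 covered 1 and the other libraries 0.

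Close to the listed start sites of coding genes thymocytes covered a larger share of fragments than any muscle library. Of 59 fragments within 2 kb of the 11 listed start sites of 7 genes, 12 were covered in thymocytes, or 20.3% (95% Wilson interval 12.0 to 32.3). Each muscle library covered 1, or 1.69% (0.300 to 9.00). Relative to the far average of each library the ratio was 6.19 in thymocytes. It was 0.773 and 1.60 in the WT and 1.73 and 1.98 in the GRko libraries. The muscle ratios rest on 1 fragment each, too few to set a muscle library apart from thymocytes on this scale. Elsewhere in the region thymocytes covered 1.44% of 12536 fragments, less than WT replicate 1 with 2.01%. Around coding start sites in the other far windows below the bait thymocytes covered 6.05% of 6095 fragments (5.48 to 6.68) and 2.63% elsewhere, while the muscle libraries covered 0.656% to 2.35% and 0.773% to 1.91%. In thymocytes coverage near start sites was thus higher than elsewhere both in the region and outside it. Outside the region this was not particular to thymocytes. Both WT libraries were also higher near start sites, with 2.35% against 1.91% and 1.07% against 0.965%. So was GRko replicate 1, with 1.02% against 0.812%, while GRko replicate 2 was lower, with 0.656% against 0.773%. Lysmd3 had 3 covered fragments with 1728 thymocyte reads near its start, Mblac2 2 with 349, and Adgrv1, Polr3g and Cetn3 1 each with 14, 30 and 51 reads. Mef2c had 1 with 4 reads near 83523656 and 2 with 105 near 83573607. Arrdc3 had 1 with 13 reads near 80883384 and 80883422, and 1 with 3 near 80886095. The surroundings of the Polr3g and Mblac2 start sites overlap. In muscle, the single fragment lay near Arrdc3 in both WT libraries, with 1908 and 9 reads, and near Lysmd3 in both GRko libraries, with 1 and 106 reads. Tmem161b, the remaining coding gene, had no listed start site, so its surroundings were counted as elsewhere. Near the non-coding start site of A230107N01Rik, just below the Tmem161b span, WT replicate 1 covered 3 of 11 fragments, with 1696 reads. The other libraries covered 0 there, so the contrast holds for the listed sites only.

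**Figure D3:**
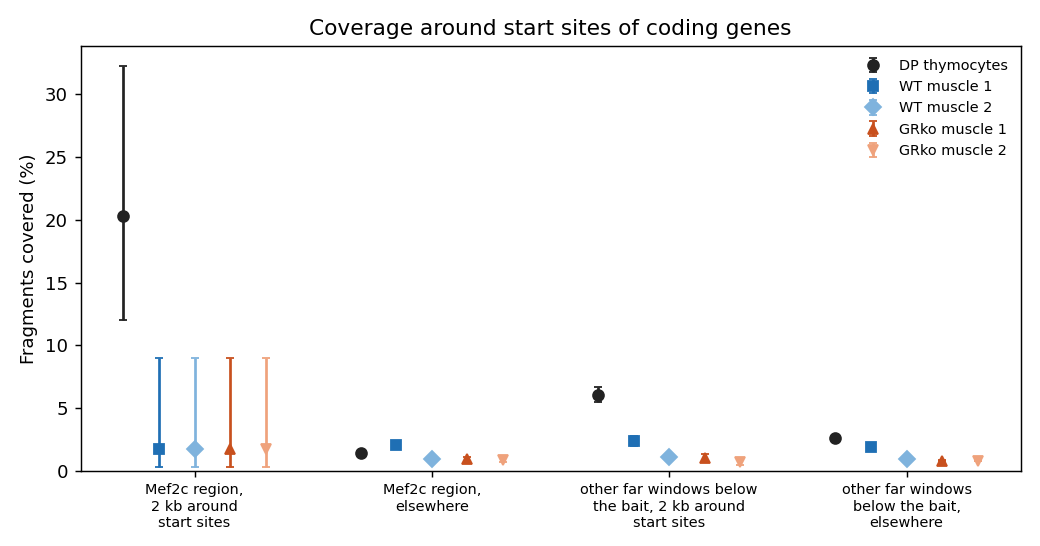
Share of restriction fragments covered (%), within 2 kb of a coding start site or elsewhere, in the Mef2c region and in the other far windows below the bait; points are single libraries and bars 95% Wilson intervals. Thymocytes reach 20.3% near start sites of the region, where each muscle library has 1.69%. No start site was listed for Tmem161b.

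The region was also set beside other gene-free windows. Below the bait, 27 other far windows of 500 kb hold no protein-coding gene. Set against all windows on that side, they had 0.285 of the expected covered fragments in thymocytes, 0.572 and 0.744 in WT, against 0.514 and 0.771 in GRko muscle. The 5 gene-free windows of the Mef2c region had 0.322 in thymocytes, 1.04 and 0.990 in WT, against 1.24 and 1.11 in GRko muscle. Low thymocyte coverage was thus shared with gene-free windows elsewhere. Pooled over the 5 windows, muscle coverage was above that of the other gene-free windows in all 4 libraries, with the high values at 82 to 83.5 Mb. In windows with 1 or 2 coding genes outside the region the libraries were close together, from 0.848 to 0.956.

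Against the far average of each library, the window at 82.5 Mb was above 25 and 26 of the 27 other gene-free windows in WT muscle and above all 27 in both GRko libraries. The window at 83 Mb was above 26 and 25 in WT, against 27 and 25 in GRko muscle. In thymocytes the same windows were above 24 and 25, at ratios of 0.290 and 0.622, where the median of the others was 0.146. The order of these windows among gene-free ones was therefore high in thymocytes too, at a lower level. The window at 82 Mb differed: it was above 24 and 25 in WT, against 23 and 21 in GRko muscle, and above 9 in thymocytes. The outer gene-free windows, at 80 and 84.5 Mb, were mid-list or lower in most muscle libraries: above 14 and 17 of the 27 in WT replicate 1, 7 and 7 in WT replicate 2, 13 and 13 in GRko replicate 1, and 20 and 16 in GRko replicate 2. In thymocytes both were above 17. The windows were not matched for distance in this ranking. Of the 9 gene-free windows outside the region at 10 to 30 Mb below the bait, the window at 82.5 Mb was above all 9 in each muscle library and above 8 in thymocytes. The window at 83 Mb was above all 9 in every library but GRko replicate 2, where it was above 8. That at 82 Mb was above all 9 in 3 muscle libraries, above 6 in GRko replicate 2 and above 2 in thymocytes. Those at 80 and 84.5 Mb were above 3 to 7 in each library.

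**Figure D4:**
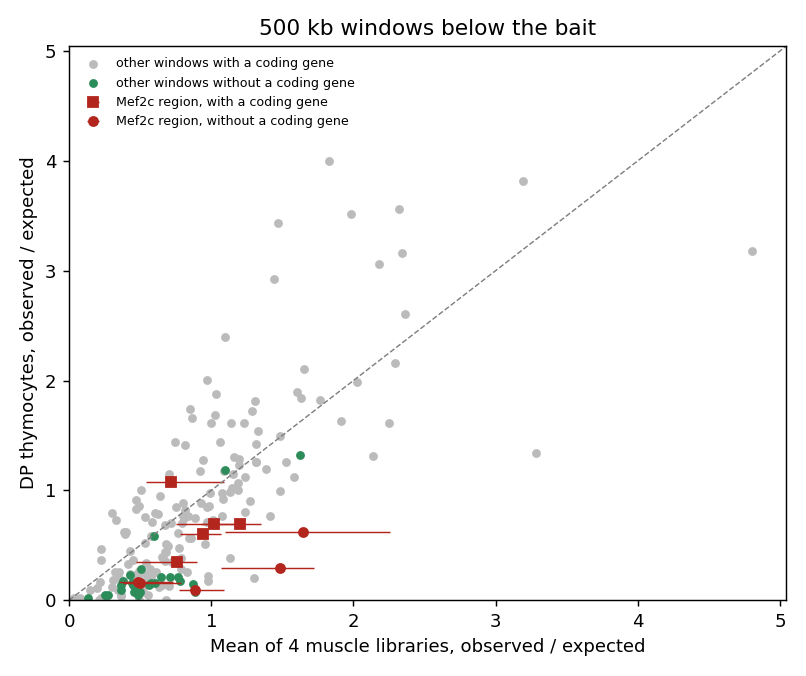
Observed over expected covered fragments per 500 kb window below the bait, thymocytes against the mean of the 4 muscle libraries; red marks the Mef2c region, with bars for the range over muscle libraries, and green other windows without a coding gene. Gene-free windows lie mostly below the dashed line of equality, and those of the region at 82.5 Mb and 83 Mb lie farther right, at thymocyte ratios of 0.290 and 0.622.

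Single fragments rarely recurred. Of 747 fragments covered in any library, 705 were covered in 1 library, 40 in 2, 2 in 3 and 0 in 4 or 5. Recurrent fragments made up 5.62% of those covered in the region and 8.81% of those covered in all far cis. Libraries of a genotype shared 4 fragments in WT muscle (1.58% of replicate 1 and 3.28% of replicate 2) and 5 in GRko muscle (4.24% and 4.72%). The most were shared between WT replicate 2 and GRko replicate 2, 10 fragments or 8.20% and 9.43% of their lists; over all far fragments the same libraries shared 7.68% and 9.53%. For the replicates of a genotype the far shares were 2.16% and 4.47% (WT) and 6.88% and 7.89% (GRko).

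The 2 fragments covered in 3 libraries showed how uneven the reads were. The fragment at 80876204, 7180 bp below Arrdc3, had 393 reads in thymocytes, 10243 in WT replicate 2 and 3 in GRko replicate 2. That at 83141105, 362912 bp below Mef2c, had 4836 reads in GRko replicate 1 and 1 each in WT replicate 2 and GRko replicate 2. The next by the naming rule, at 82233868, 82615859 and 82870899, had 8947, 5070 and 2304 reads in GRko replicate 2 and 1 or 2 in 1 other library. At 10 or more reads in both libraries, 11 of 445 fragments recurred. 1 of the 11 lies in a coding gene, at 84229556 in Tmem161b, with 22 and 42 reads in WT replicates 1 and 2.

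Read totals rested on a few fragments in both replicates 2, those read at 23 nt; the part of read length was not tested. The region held 1.60% of far reads in thymocytes, 3.78% and 2.90% in WT, against 4.80% and 6.09% in GRko muscle. The 3 highest fragments carried 17.2% of the region's reads in thymocytes, 16.1% in WT replicate 1 and 25.7% in GRko replicate 1, but 60.8% in WT replicate 2 and 56.0% in GRko replicate 2. In thymocytes these 3 were at 81483244 in Adgrv1, 83385460 below Mef2c and 84276276 in Tmem161b, with 3040, 2160 and 2146 reads. In WT replicate 1 all 3 lay outside coding genes, at 83179622, 84319157 and 82937953, with 4459, 4424 and 4358 reads. The first and the third of them lie in the stretch between Cetn3 and Mef2c. In GRko replicate 1 they were at 83141105, 81955273 and 83103451, all in that stretch too. For comparison, 82 to 83 Mb held 33.5% and 11.2% of the region's reads in WT, 9.80% and 58.8% in GRko muscle, and 2.95% in thymocytes. By reads, too, the thymocyte value was the lowest, while replicates of a genotype differed several-fold.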

How the data were processed

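4C-seq with DpnII and Csp6I was run on 5 libraries, per the labels' protocols. Removal of the bait sequence left 29 or 23 of 50 nt, per the labels. Each file deposited by the authors gives whole read counts for the restriction fragments of chromosome 13, and its header line gives the bait. The submitters' processing notes name bcl2fastq, Bowtie 1.0.0 and mm10; how the reads were assigned to fragments is not given in sources used here. Listed positions were fragment midpoints: all 311 stretches between neighbouring GATC sites in chromosome 13 promoter sequences had their midpoint listed. Up to 3 fragments near the bait were missing from some files, within 1247 bp of it.

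Fragments with 1 or more reads beyond 1.5 Mb were counted per 500 kb window, with their total as library size. Windows with at least 10 covered fragments entered the quasi-likelihood test of edgeR 4.0.16 under R 4.3.3, GRko against WT in the 4 muscle libraries and thymocytes against WT in all 5, so the single thymocyte library was assumed to vary like muscle. The fit was tested on simulated data. Wilson intervals (95%, scipy 1.17.1) cover counting error only, since PCR copies cannot be told apart. The limit for a share of 0 used 3 counts. Genes came from RefSeq (GRCm38.p6); all 8 coding genes were matched. Named were all 10 windows, all genes with an approved symbol, the 5 most recurrent fragments and the 3 with most reads in each library; other fragments were named after their values were seen. The region, lists and comparisons were chosen with earlier results of these data known. Alternatives were TMM, DESeq2 1.42.0, no filter, windows of 250 kb and 1 Mb, higher read thresholds, reads, equal numbers of fragments, a 10 Mb distance, the region without the window of Mef2c, replicates left out and the replicate number as a block. The mean of the 4 muscle libraries and the share within gene-free windows were added after seeing the data.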

Additional observations from a re-analysis of the deposited data

How the results depend on the processing

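The share of far covered fragments in the region was lower in DP thymocytes than in WT muscle under all 9 alternatives. The difference was -1.80 percentage points at 2 or more reads, -1.62 at 10 or more, -1.74 in reads and -2.02 with 2434 fragments from every library. It was -2.80 of the fragments beyond 10 Mb below the bait, -1.77 without the window of Mef2c and -5.21 of the fragments in gene-free windows. On that last measure thymocytes had 17.4% and the muscle libraries 19.9% to 31.1%. The region's share of restriction fragments there is 15.7%, so thymocytes were not below an even spread. GRko minus WT stayed above 0 in all 11, at 0.833 and 1.14 for the higher thresholds, 2.10 in reads, 0.665 with equal numbers, 0.552 beyond 10 Mb and 3.49 in gene-free windows, and 0.183 to 0.310 with a replicate left out. The genotypes overlapped beyond 10 Mb, where GRko replicate 2 had 6.76% and WT replicate 1 7.28%, and in gene-free windows, where these had 21.2% and 25.4%. The share from 82 to 83 Mb within the region was -23.3 points with equal numbers and -20.1 to -11.6 without a WT replicate. The Mef2c span, -0.113 points of far covered fragments in thymocytes, was -0.157 at 2 or more reads, -0.194 in reads, -0.147 with equal numbers, and -0.133 to -0.0928 without a WT replicate. The GRko difference changed sign for the Mef2c span without GRko replicate 1 (-0.047) and for 82 to 83 Mb without WT replicate 1 (-3.32) and with equal numbers (-0.91). Windows of the region called in thymocytes numbered 0 with DESeq2, 5 of 20 with windows of 250 kb (4 lower and 1 higher, at 81500001), and 2 to 3 with a library left out, the 2 being without WT replicate 1; why they differ between tools was not tested. Over all windows, calls rose from 19 to 50 and 49 without GRko replicates 1 and 2, fell to 12 and 14 without WT replicates 1 and 2, and were 55 and 39 at 2 and 10 or more reads, 8 with TMM, 15 of 116 in windows of 1 Mb, 39 of 436 in windows of 250 kb, 12 without a filter and 43 against the mean of all muscle. No alternative called a window between the genotypes.

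Replicate numbers go with read length in the labels and with no animal or batch. Over 228 windows the log2 difference of replicate 1 and replicate 2 in WT and in GRko muscle had a correlation of 0.35. With the replicate block 3 windows of the region were called in thymocytes, 33 over all windows in place of 19, and 0 between the genotypes.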

Other observations

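Of the 42 fragments of the region covered in more than 1 library, 13 had at least 100 reads in a library and at most 3 in another, or 31.0%; over all far fragments these were 454 of 1913, or 23.7%. The fragment at 83141105, with 4836, 1 and 1 reads, is among them. At 10 or more reads in both libraries 2.47% of the covered fragments of the region recurred, and 5.90% of all far fragments.

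The region also holds the miRNA genes Mir9-2, whose product acts in neural development, and Mir3961. Within 2 kb of Mir9-2, which lies above Mef2c at 83738814 to 83738885, 1 of 12 fragments was covered, in WT replicate 2 with 397 reads. Within 2 kb of Mir3961, in the gene-poor stretch at 82698275, 0 of 12 fragments were covered in any library. In bins of 100 kb, the muscle libraries together covered most fragments at 83100001 to 83200000, with 13 and 9 in WT and 7 and 3 in GRko replicates 1 and 2, and thymocytes at 81700001 to 81800000, with 19 of 232 fragments.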
